A study of Mus musculus with 46 samples.

Results

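Serine synthesis and the folate one-carbon cycle are represented here by 10 enzymes: Phgdh, Psat1 and Psph of serine synthesis, Shmt1 and Mthfd1 of the cytosolic folate arm, and Shmt2, Mthfd2, Mthfd2l, Mthfd1l and Aldh1l2 of the mitochondrial folate arm. They were taken by gene name from a list of the pathway's enzymes and were chosen with earlier results of these data known. All 10 had values in every library, among 14888 genes in all. Serine is made from the glycolytic intermediate 3-phosphoglycerate and gives up a carbon to tetrahydrofolate as it is turned into glycine. That carbon is carried on folate through parallel enzyme sets in the cytosol and in mitochondria and is used to build purines, thymidylate and methionine. Several of these genes are known MYC or ATF4 targets in other cell types, and proliferating tumour cells often hold the mitochondrial enzymes at high levels.

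Total RNA of cultured thyroid cells was sequenced. The cells came from mice that develop tumours once a tamoxifen-inducible Cre has recombined the conditional alleles in neuroendocrine cells. The RPM lines are Rb/p53/Max mutant (4 libraries) and the RP lines are Rb/p53 mutant (4 libraries), so by label both groups are mutant for Rb and p53 and differ in Max. In a separate experiment, Rb/p53/Max mutant cells were transduced with a vector expressing Max (Max addback, 3 libraries) or with the empty vector (3 libraries). By the library names all 6 of these came from 1 line, the one that is RPM replicate 2, and 32 further libraries, made from tumours, were not analysed here. MAX is the partner that MYC proteins and the MXD and MNT repressors need to bind DNA, and the study asked what its loss does to transcription through that network. By their library names the replicates of the RPM and RP groups are separate lines. Nothing in the labels says whether the addback and empty vector replicates were separate transductions or repeat cultures, so p-values there measure only the spread between these libraries.

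The libraries held 6738614 to 8498396 reads over the listed genes, recovered from the deposited values, and 3 reads, a floor for counting error only, were worth 0.353 to 0.458 CPM (reads of a gene scaled to library size and a TMM factor, within each table). Max transcripts were at 251, 249.6 and 220.3 CPM in the addback libraries, against 86.3, 83.1 and 96.0 CPM with empty vector, and at 68.9 to 103 CPM in the RPM lines, against 44.7 to 65.2 CPM in the RP lines. Max transcript was not lower in the lines labelled Max mutant, and a gene-level count does not show whether its reads come from the deleted part, so it does not check those labels. Gene-level counts do not check the Rb and p53 labels either, with Rb1 at 140 to 223 CPM in RPM lines and 199 to 296 CPM in RP lines, and Trp53 at 9.72 to 17.5 CPM in RPM lines and 9.02 to 16.6 CPM in RP lines. Addback replicate 3 stood apart from replicates 1 and 2 (a chi-square of the counts over genes gave 15.5 and 13.2 per degree of freedom, against 1.83 between replicates 1 and 2). The Y-linked Ddx3y had no read in any addback library. It was at 177, 165 and 157 CPM with empty vector and 125 CPM in the untransduced line. Eif2s3y, Kdm5d and Uty had at most 0.257 CPM with addback, against at least 60.9 CPM with empty vector. In the untransduced line these 3 genes were at 59.6, 47.5 and 43.3 CPM. The addback and empty vector cultures therefore differed by more than the vector, and differences that go with Max cannot be told apart from other differences between the cultures. The animal identifier of RPM replicate 1 also stands on tumours labelled Rb/p53 mutant, and its Mycl level was 320.1 CPM, with RPM replicates 2 to 4 at 2.84 to 6.61 CPM and the RP lines at 175 to 408 CPM. RP replicate 4 held both Xist (344 CPM) and Ddx3y (53.3 CPM). The label of thyroid cells was read against markers: the C cell gene Calca was high in every line (832 to 12562 CPM), while of 6 follicular markers only Slc5a5 had values, at 8.88 CPM or less.

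The 10 genes lie on 7 mouse chromosomes, by GENCODE vM21 on GRCm38: Phgdh at chr3:98313170-98339990, Psat1 at chr19:15904678-15947337, Psph at chr5:129765558-129787449, Shmt1 at chr11:60788104-60811718, Shmt2 at chr10:127517123-127522444, Aldh1l2 at chr10:83487450-83534140 and Mthfd2 at chr6:83305691-83325908, all on the minus strand. On the plus strand are Mthfd1 at chr12:76255298-76319803, Mthfd1l at chr10:3973118-4167081 and Mthfd2l at chr5:90931117-91021368. Exons overlap a gene on the opposite strand over 14.1% of the exonic bases of Aldh1l2 (D10Wsu102e), 10.4% of Psph (Cct6a) and 4.74% of Shmt1 (Smcr8). Reads of such overlaps cannot be told apart, with the strand setting not given in the sources used here.

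Promoter windows of 300 bases, from 250 before to 50 after the start site, were found for 9 of the 10 genes (10 windows, 2 of them for Psat1) in RefSeq sequence on GRCm38.p6. The canonical E-box CACGTG, the hexamer that MYC-MAX dimers bind, was in 0 of the 10 windows on either strand, and it stands in 7.15% of all 32851 windows. The ATF4 element searched, TGATGNAA, was also in 0 of 10, against 3.97% of all windows. The non-canonical E-box CACGCG, searched after no window had held CACGTG, stands in 9.27% of all windows and was in those of Psat1, Shmt1 and Shmt2. A match here is only a match of letters, and its absence says only that these letters are not in the window. The stretches below show these matches in capitals (CACGCG, or CGCGTG where it lies on the other strand), and Phgdh, which had none and the largest change with addback, is shown beside them. The matches begin 91 bases before the start site in Shmt1, 148 before it in Psat1 (46 before it in its other window, not shown) and 38 past it in Shmt2. Each is written 5′ to 3′ on the gene's own, minus strand: Shmt1 at chr11:60811266-60811515, Psat1 at chr19:15925060-15925309, Phgdh at chr3:98339970-98340219 and, as 30 bases around its match, Shmt2 at chr10:127522395-127522424.
Shmt1: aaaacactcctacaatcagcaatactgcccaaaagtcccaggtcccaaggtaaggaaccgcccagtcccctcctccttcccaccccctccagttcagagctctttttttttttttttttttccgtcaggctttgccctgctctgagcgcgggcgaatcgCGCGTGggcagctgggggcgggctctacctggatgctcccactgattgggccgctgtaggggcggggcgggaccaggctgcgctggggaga
Psat1: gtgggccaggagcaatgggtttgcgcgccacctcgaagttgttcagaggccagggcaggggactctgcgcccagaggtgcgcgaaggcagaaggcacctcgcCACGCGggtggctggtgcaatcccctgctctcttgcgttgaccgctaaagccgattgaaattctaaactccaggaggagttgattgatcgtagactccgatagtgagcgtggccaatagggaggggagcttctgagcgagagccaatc
Phgdh: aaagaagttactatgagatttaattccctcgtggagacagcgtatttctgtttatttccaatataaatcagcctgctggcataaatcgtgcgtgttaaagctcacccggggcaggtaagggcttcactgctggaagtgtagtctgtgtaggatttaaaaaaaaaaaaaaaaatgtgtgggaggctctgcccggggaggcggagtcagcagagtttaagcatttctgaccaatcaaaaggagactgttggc
Shmt2: gggggcaattttctcgcgCACGCGttctaa

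Of the 10 enzymes, none was called between RPM and RP lines, and all 10 were called lower with Max addback than with empty vector. A call is a Benjamini-Hochberg adjusted p under 0.05 over all listed genes in limma on log2(CPM + 1), the scale of all fitted changes below. In the lines edgeR on recovered reads also called none of the 10, when it called 0.0209% of all genes. DESeq2 called 2 of the 10, when it called 4.58% of all genes. An unadjusted limma p under 0.05 was held by 3 of the 10, against 15.9% of all genes. Of all genes, limma called 0.334% between the lines, and 53.2% with addback, 25.5% of all genes lower. The median change over the 10 enzymes was 0.30 (log2) in the lines, against -0.0052 over all genes, and -0.93 with addback, against -0.0018 over all genes. Between the lines, Shmt1 and Mthfd1 of the cytosolic arm were the 2 enzymes whose RPM and RP libraries did not overlap, both higher in RPM lines, and 4.97% of all genes were higher in RPM lines without overlap. With addback, all 10 were lower without overlap, as were 30.2% of all genes.

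**Figure D1:**
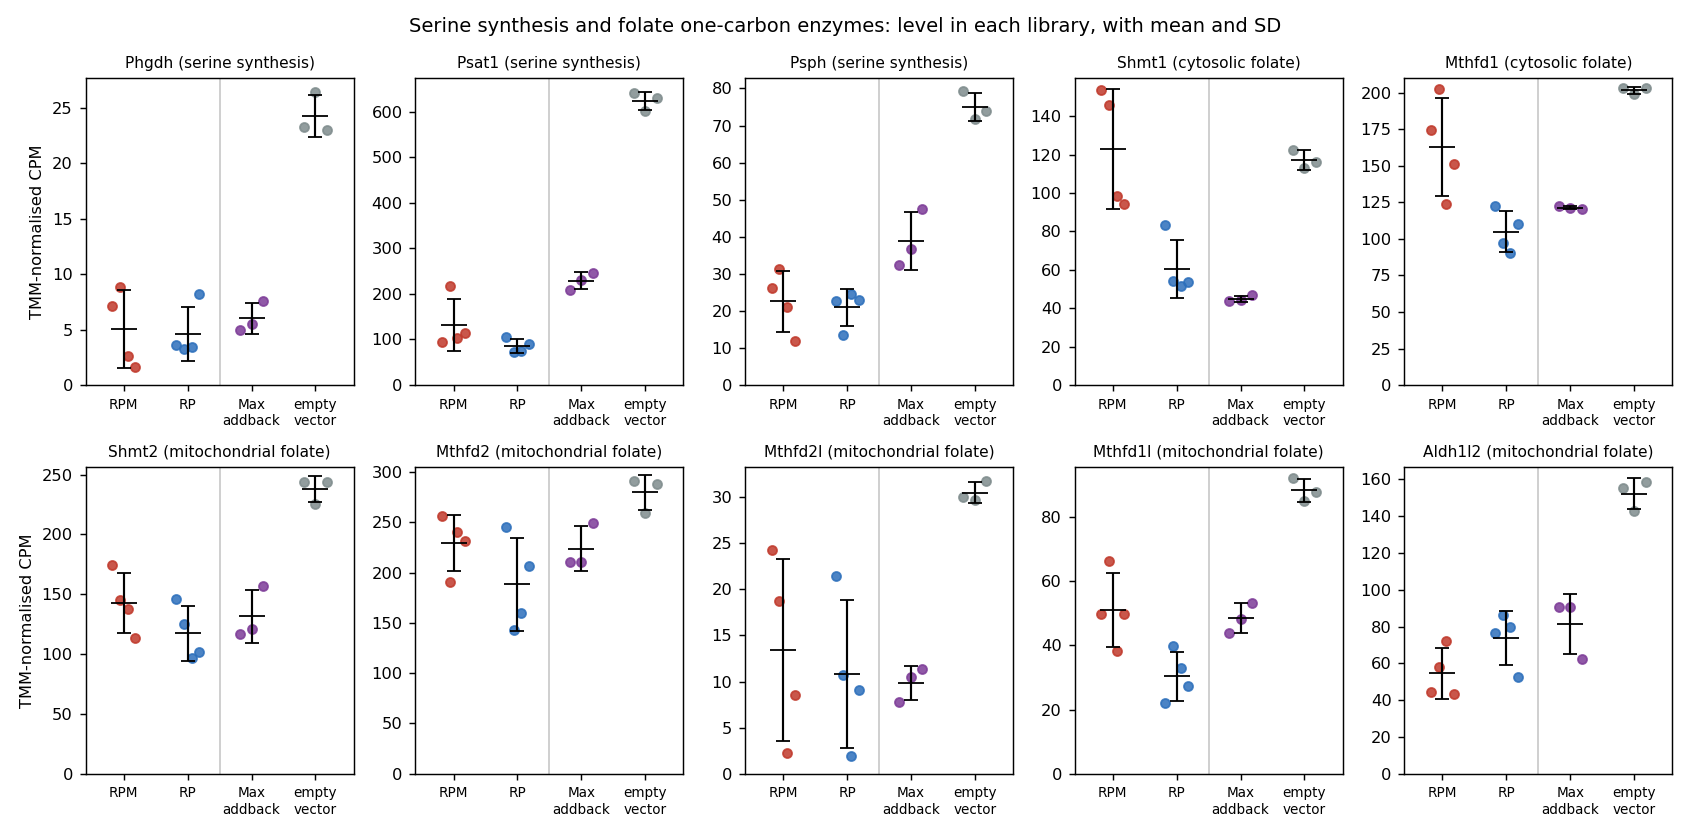
Level of each enzyme in TMM-normalised CPM (y axis, a separate scale per panel) in each library (points), with the group mean and SD (bars); RPM and RP lines left of the grey line, Max addback and empty vector right of it. In the cytosolic pair the RPM points lie above the RP points, and in every panel the addback points lie below the empty vector points.

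**Figure D2:**
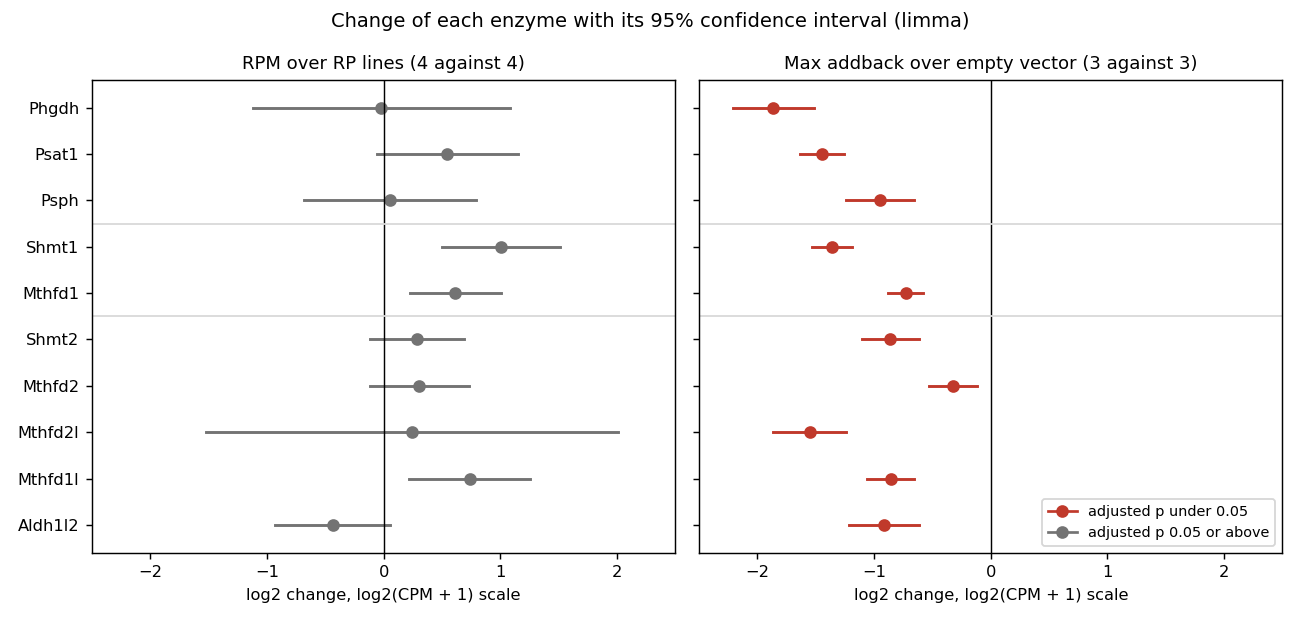
Fitted log2 change of each enzyme with its 95% confidence interval from limma, RPM over RP lines on the left and Max addback over empty vector on the right; grey lines separate serine synthesis, the cytosolic arm and the mitochondrial arm. No interval on the left belongs to a called gene, and all 10 on the right lie below 0.

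In serine synthesis, Phgdh, the dehydrogenase of the first step, was the lowest of the 3. It had 7.15, 8.85, 2.60 and 1.61 CPM in RPM replicates 1 to 4, against 3.61, 3.25, 3.41 and 8.24 CPM in RP replicates 1 to 4. The RPM lines lay on both sides of every RP line, and the fitted change was -0.02 (SE 0.48, adjusted p = 0.989 in limma), with a 95% interval of -1.12 to 1.08. In the addback experiment Phgdh had 4.96, 5.48 and 7.58 CPM with Max addback, against 23.3, 26.4 and 23.1 CPM with empty vector. The groups were far apart, and Phgdh fell by 1.87 on the log2 scale (SE 0.15, adjusted p = 5.71e-06 in limma), the largest change of the 10 on that scale. Its means were 6.01 ± 1.39 CPM with addback, against 24.3 ± 1.88 CPM with empty vector (SD, n = 3 each).

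Psat1, the transaminase of the second step, was the most abundant of the serine enzymes and had 93.8, 217, 102 and 114 CPM in RPM lines, against 106, 71.5, 75.6 and 89.9 CPM in RP lines. RPM replicate 2, the line used for the addback experiment, was the highest, and the groups overlapped, with RPM replicates 1 and 3 below RP replicate 1. The change of 0.55 (SE 0.26) was not called (adjusted p = 0.354 in limma), and it was 0.28 without RPM replicate 2. With Max addback Psat1 had 209, 230.0 and 246 CPM, against 640.3, 602 and 630.2 CPM with empty vector. It fell by 1.45 on the log2 scale (SE 0.08, adjusted p = 4.28e-07 in limma), and the libraries lay close together within each group.

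Psph, the phosphatase that releases serine, had 26.2, 31.3, 20.9 and 11.8 CPM in RPM lines, against 22.7, 13.6, 24.6 and 22.8 CPM in RP lines. The groups overlapped throughout, with a change of 0.05 (SE 0.32, 95% interval -0.68 to 0.79). With Max addback it had 32.3, 36.7 and 47.4 CPM, against 79.3, 71.9 and 73.9 CPM with empty vector. It fell by 0.95 on the log2 scale (SE 0.13, adjusted p = 0.000172 in limma).

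In the cytosolic arm, Shmt1, which moves the serine carbon to folate in the cytosol, had 154, 146, 98.2 and 94.1 CPM in RPM replicates 1 to 4, against 83.3, 54.0, 51.4 and 53.5 CPM in RP replicates 1 to 4. Every RPM line lay above every RP line, with means of 123 ± 31.1 against 60.5 ± 15.2 CPM (SD, n = 4 each) and the smallest p that 4 against 4 allows (exact two-sided permutation test on CPM, p = 0.0286). The fitted change was 1.00 (SE 0.22, 95% interval 0.50 to 1.51), which did not pass across all genes (adjusted p = 0.132 in limma, and 0.0977 without RPM replicate 1, where the change was 0.89). DESeq2 on the recovered reads called Shmt1 higher in RPM lines (adjusted p = 0.0047) when it called 2.45% of all genes higher, and in the authors' deposited table it was the only one of the 10 enzymes called (FDR 0.0303), with 1.72% of genes called higher. With Max addback Shmt1 had 43.7, 44.5 and 46.8 CPM, against 123, 113 and 116 CPM with empty vector. It fell by 1.36 on the log2 scale (SE 0.08, adjusted p = 3.25e-07 in limma), and the addback libraries lay below every RP line as well, although the 2 tables were normalised separately.

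Mthfd1, the trifunctional enzyme that interconverts formate and the folate-bound carbons in the cytosol, had 175, 203, 124 and 151 CPM in RPM lines, against 122, 97.4, 90.6 and 110.0 CPM in RP lines. The groups were separated narrowly, by RPM replicate 3 and RP replicate 1. The exact two-sided permutation test on CPM again gave its smallest p (0.0286, 4 against 4). The change of 0.62 (SE 0.17, 95% interval 0.23 to 1.00) was not called in limma (adjusted p = 0.183) and was called by DESeq2 (adjusted p = 0.0332). With Max addback Mthfd1 had 122, 121 and 120.4 CPM, against 203, 199 and 203 CPM with empty vector. It fell by 0.73 on the log2 scale (SE 0.07, adjusted p = 1.06e-05 in limma), with an SD within the groups of 0.945 CPM for addback and 2.45 CPM for empty vector (n = 3 each).

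In the mitochondrial arm, Shmt2, the mitochondrial counterpart of Shmt1, had 175, 145, 137 and 113 CPM in RPM lines, against 146, 125, 96.7 and 102 CPM in RP lines. The groups overlapped, and the change was 0.28 (SE 0.18, 95% interval -0.12 to 0.69, adjusted p = 0.457 in limma). With Max addback it had 117, 121 and 157 CPM, against 244, 225 and 244 CPM with empty vector. It fell by 0.86 on the log2 scale (SE 0.11, adjusted p = 0.000118 in limma), with addback replicate 3 nearest to the empty vector libraries.

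Mthfd2, the mitochondrial dehydrogenase and cyclohydrolase that proliferating cells induce, had 257, 191, 240.4 and 231 CPM in RPM lines, against 245, 142, 160.2 and 207 CPM in RP lines. The groups overlapped, with a change of 0.31 (SE 0.19, 95% interval -0.11 to 0.73, adjusted p = 0.439 in limma). With Max addback it had 210.4, 211 and 249 CPM, against 291, 259.6 and 288 CPM with empty vector. Its fall of 0.32 on the log2 scale was the smallest of the 10 (SE 0.09, adjusted p = 0.0129 in limma). That call was lost in limma without addback replicate 2, empty vector replicate 1 or empty vector replicate 3 (adjusted p = 0.0544, 0.0634 and 0.0606). The authors' deposited table does not call it, although its FDR there is 0.0156. The authors' deposited table calls the other 9 enzymes lower, and 13.1% of all genes.

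Mthfd2l, a paralog of Mthfd2 with related activity, varied most between lines, with 24.2, 18.7, 2.25 and 8.55 CPM in RPM lines, against 21.4, 10.7, 1.95 and 9.07 CPM in RP lines. High and low lines were found in both groups, and the 95% interval of its change, -1.52 to 2.01, was the widest of the 10. With Max addback it had 7.75, 10.5 and 11.3 CPM, against 30.01, 29.7 and 31.8 CPM with empty vector. It fell by 1.55 on the log2 scale (SE 0.14, adjusted p = 1.01e-05 in limma).

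Mthfd1l, the mitochondrial synthetase that releases formate to the cytosol, had 49.9, 66.3, 38.3 and 49.9 CPM in RPM lines, against 21.9, 39.7, 32.9 and 27.2 CPM in RP lines. The groups overlapped only between RPM replicate 3 and RP replicate 2, and the change of 0.74 (SE 0.23, 95% interval 0.21 to 1.26) was not called (adjusted p = 0.211 in limma). With Max addback it had 43.9, 48.2 and 53.3 CPM, against 92.0, 85.1 and 87.8 CPM with empty vector. It fell by 0.86 on the log2 scale (SE 0.09, adjusted p = 3.02e-05 in limma).

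Aldh1l2, which oxidises formyl-folate in mitochondria, was the 1 folate enzyme with a lower mean in RPM lines, with 44.4, 58.0, 72.4 and 43.2 CPM in RPM lines, against 76.5, 86.2, 80.0 and 52.4 CPM in RP lines. RP replicate 4 was the line that made the groups overlap, and the change of -0.44 (SE 0.22, 95% interval -0.93 to 0.06) was not called (adjusted p = 0.363 in limma). With Max addback it had 90.8, 90.8 and 62.6 CPM, against 155, 143 and 159 CPM with empty vector. It fell by 0.92 on the log2 scale (SE 0.13, adjusted p = 0.000298 in limma), and addback replicate 3 was the lowest library, unlike for the other 4 mitochondrial enzymes, where it was the highest of the addback libraries. Without that replicate all 10 enzymes were still called lower, with Aldh1l2 at -0.74 and Phgdh at -2.02.

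Of the 3 enzymes with an unadjusted limma p under 0.05 in the lines, Shmt1, Mthfd1 and Mthfd1l, all were higher in RPM lines, and 15.9% of all genes had such a p. Across the 8 lines, log2(CPM + 1) levels of Shmt1 and Mthfd1 had the highest correlation of any pair of enzymes (Pearson r = 0.94), followed by the pairs Psat1 and Mthfd1 (r = 0.82) and Shmt1 and Shmt2 (r = 0.82), which cross the arms. Within serine synthesis, Phgdh varied with Psph (r = 0.76) more closely than with Psat1 (r = 0.35). Mthfd1 and Aldh1l2 had the lowest value (r = -0.68). These values are descriptions over 8 lines that share 1 table and the group difference. Among 10436 genes with a mean of at least 10 CPM, the levels nearest to those of Shmt1 over the 8 lines were of Pogk (r = 0.98), Ttc27 (r = 0.98) and Mmachc (r = 0.96). For Phgdh they were of Atad2 (r = 0.95), Chac2 (r = 0.92) and Hdac10 (r = 0.91), and for Mthfd2 of Dcaf17 (r = 0.97), Cct6a (r = 0.96) and Gmip (r = 0.96).

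Levels of different genes were compared as the deposited RPKM, which divides by gene length. Mthfd2 was the highest enzyme in RPM lines (65.9 ± 7.99 RPKM, SD, n = 4) and in RP lines (54.1 ± 13.3 RPKM, SD, n = 4), followed in both by Shmt2 (45.9 ± 8.14 and 37.7 ± 7.31 RPKM), whose range overlapped that of Mthfd2. Mthfd1 was the third in both. Phgdh and Mthfd2l were the lowest in all 4 groups, at 2.03 ± 1.41 and 2.02 ± 1.49 RPKM in the RPM lines (SD, n = 4). With Max addback the order was led by Mthfd2 (64.1 ± 6.42 RPKM) and then Psat1 (53.7 ± 4.39 RPKM), and with empty vector by Psat1 (146.7 ± 4.67 RPKM), which did not overlap Mthfd2 (80.2 ± 5.01 RPKM, SD, n = 3).

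Summed over each arm, the cytosolic pair was at 68.4 ± 14.9 RPKM in RPM lines, against 39.2 ± 6.78 RPKM in RP lines (SD, n = 4 each), and did not overlap. The 5 mitochondrial enzymes were at 133 ± 12.8 RPKM in RPM lines, against 110.1 ± 17.6 RPKM in RP lines, and overlapped. Mthfd2 alone made up on average 49.8% of their sum in RPM lines and 48.8% in RP lines. The ratio of the mitochondrial to the cytosolic sum was 1.91, 1.53, 2.48 and 2.08 in RPM replicates 1 to 4, against 2.77, 2.88, 2.84 and 2.76 in RP replicates 1 to 4. All RPM lines lay below all RP lines, and the RP lines held nearly the same ratio while the RPM lines spread widely (SD 0.396 and 0.0554). Shmt2 over Shmt1 alone was 1.48 ± 0.210 in RPM lines, against 2.45 ± 0.303 in RP lines. Mthfd2 over Mthfd1 was 1.87 ± 0.523 in RPM lines, against 2.27 ± 0.295 in RP lines, and overlapped. Mthfd1l over Mthfd1 was 0.314 ± 0.0204 in RPM lines, against 0.300 ± 0.105 in RP lines, and overlapped too.

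With Max addback the cytosolic sum was 38.9 ± 0.230 RPKM, against 75.6 ± 1.74 RPKM with empty vector, and the mitochondrial sum was 129.7 ± 12.5 RPKM, against 202 ± 10.3 RPKM (SD, n = 3 each). The mitochondrial to cytosolic ratio was 3.12, 3.20 and 3.68 with Max addback, against 2.69, 2.57 and 2.73 with empty vector. It was higher in every addback library, and the highest was replicate 3. Mthfd2 over Mthfd1 was 2.35 ± 0.251 with addback, against 1.77 ± 0.0896 with empty vector. Shmt2 over Shmt1 was 3.64 ± 0.474 with addback, against 2.54 ± 0.0746 with empty vector. Mthfd1l over Mthfd1 had a lower mean with addback (0.400 ± 0.0422) than with empty vector (0.438 ± 0.0136), and overlapped. The serine synthesis sum was 65.1 ± 6.66 RPKM with addback, against 174 ± 4.77 RPKM with empty vector. Psat1 alone made up on average 82.6% of that sum with addback and 84.4% with empty vector. Mthfd2 alone made up on average 49.4% of the mitochondrial sum with addback and 39.8% with empty vector. Arm sums and ratios were not tested, because the enzymes in them were chosen with results known.

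**Figure D3:**
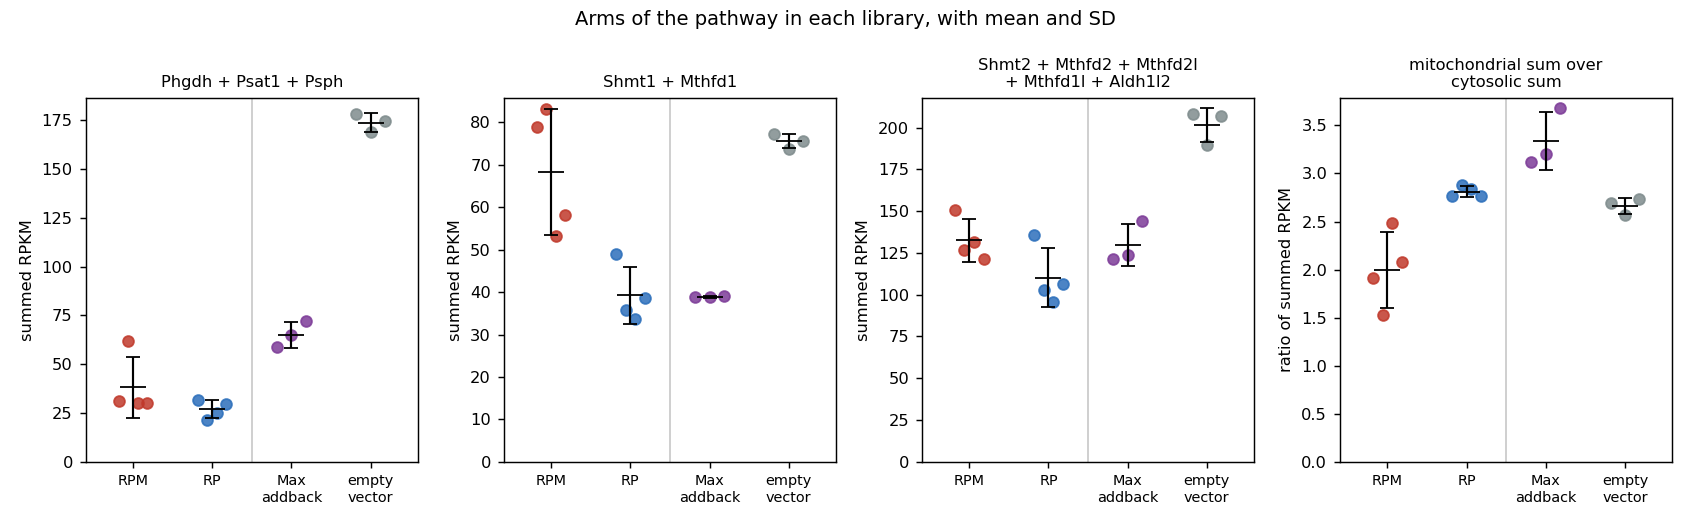
Summed RPKM of the serine synthesis, cytosolic and mitochondrial enzymes and the ratio of the mitochondrial to the cytosolic sum (y axes) in each library (points), with group mean and SD (bars). The ratio was 1.53 to 2.48 in RPM lines, against 2.76 to 2.88 in RP lines, and 3.12 to 3.68 with Max addback, against 2.57 to 2.73 with empty vector.

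The untransduced line was sequenced once as RPM replicate 2, in the other table, so its levels can only be set beside those of the transduced cells. The median of all 13528 shared genes moved little between tables (-0.0056 for empty vector and 0.013 for addback, log2). Each table was already scaled to library size and a TMM factor, so this median does not check the levels of single genes. Empty vector cells had 2.88 times the untransduced level of Psat1, 2.74 times that of Phgdh, 2.63 times that of Aldh1l2 and 2.40 times that of Psph. These 4 were at least 2-fold higher on the log2(CPM + 1) scale, as were 3.81% of the shared genes. The cytosolic enzymes of the empty vector cells were near or under the untransduced level, at 0.995 times for Mthfd1 and 0.804 times for Shmt1.

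Addback cells set beside the untransduced line showed another split. Psat1 (1.05 times), Shmt2 (0.909 times), Mthfd2 (1.17 times) and Psph (1.24 times) were near the untransduced level. Shmt1 (0.308 times), Mthfd2l (0.526 times) and Mthfd1 (0.598 times) were furthest below it. Phgdh (0.679 times) and Mthfd1l (0.731 times) were also below it, and Aldh1l2 (1.40 times) was above it. For the serine and the mitochondrial enzymes, the empty vector cells were themselves above the untransduced line, and for Shmt1 and Mthfd1 they were not. Addback cells were below both for Shmt1 and Mthfd1, and also for Phgdh, Shmt2, Mthfd2l and Mthfd1l. With 1 untransduced library and separate normalisation there was no test of these differences.

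**Figure D4:**
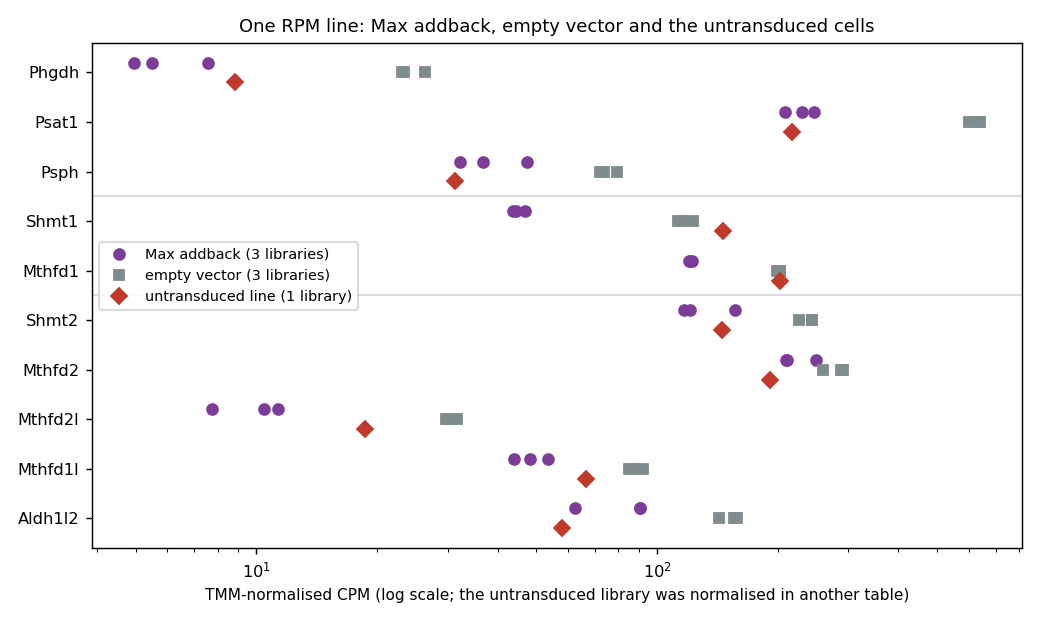
Levels of the 10 enzymes in 1 RPM line as TMM-normalised CPM on a log axis: 3 Max addback libraries (circles), 3 empty vector libraries (squares) and the single untransduced library (diamond), which was normalised in the other table. For Phgdh, Psat1 and Psph the diamond lies with or near the circles, and for Shmt1 and Mthfd1 with or above the squares.

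Neighbouring pathways were counted by the same calls, beside 27.7% of all genes called higher and 25.5% lower with addback. Between RPM and RP lines, none of the 109 genes measured in these 8 lists was called by limma or edgeR, 23 had an unadjusted limma p under 0.05 (15.9% of all genes did), and DESeq2 called 5, when it called 4.58% of all genes (Ccnb1, Mat2b, Mtrr, Pck2 and Pfas, named after their values were seen). Of 12 folate carrier and folate cycle genes, 3 were lower and 2 higher with addback, with a median of 0.01 (log2). The folate importer Slc19a1 fell to 17.1 ± 1.06 CPM with addback, against 32.6 ± 1.38 CPM with empty vector, and the mitochondrial folate carrier Slc25a32 to 39.1 ± 5.46, against 58.1 ± 3.73 CPM (SD, n = 3 each). Aldh1l1, the cytosolic counterpart of Aldh1l2, rose to 3.31 to 5.60 CPM with addback, against 0.153 to 0.429 CPM with empty vector, which is 3 reads or fewer, and Ggh, a hydrolase of folate polyglutamates, rose by 1.19 on the log2 scale.

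Of 19 purine and pyrimidine synthesis genes, 9 were lower and 2 higher with addback, with a median of -0.13. Atic, which adds the second folate-carried carbon to the purine ring, was at 77.2 ± 0.884 CPM, against 179 ± 8.32 CPM with empty vector (change -1.21, adjusted p = 4.95e-07 in limma), and the ribonucleotide reductase subunit Rrm2 fell by 1.21 too. Adssl1 (1.26) and Impdh1 (0.39) rose. Of 11 methionine cycle and transsulfuration genes 4 were lower and 1 higher, with a median of -0.06: Cth (-1.45) and Mat2a (-0.46) fell, and Mat1a, the methionine adenosyltransferase known from liver, rose to 23.7 ± 1.48 CPM, against 0.920 ± 0.199 CPM with empty vector. Of 4 glycine cleavage genes Dld fell (-0.53) and Amt rose (0.49), with a median of 0.15.

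Serine and glycine transport and use was split evenly, with 4 lower and 4 higher of 14 and a median of 0.03. The neutral amino acid transporter Slc1a4 (-0.73) and the glycine transporter Slc6a9 (-0.41, adjusted p = 0.0301 in limma, lost in 4 of its alternatives) fell. The serine dehydratase-like gene Sdsl (1.15) and Sds rose. Sds was at 0.996 to 1.799 CPM with addback, against 0.284 to 0.305 CPM with empty vector. Those empty vector values lie under the floor of 3 reads (0.426 to 0.458 CPM there). Of 23 genes of ATF4 and its amino acid response targets, 9 were lower and 5 higher, with a median of -0.21. Eif4ebp1 (-1.47) and Stc2 (-1.37) fell, and Cebpb (1.05) and Nupr1 (0.84) rose. Of 12 other mitochondrial matrix and membrane genes 5 were lower and 2 higher, with a median of -0.14: Pdha1 (-1.03) and Hspd1 (-0.59) fell, and Tomm20 (0.33) and Sdha (0.27) rose.

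Cell cycle genes and C cell markers moved with the same comparison. Of 16 cell cycle genes 9 were lower and 2 higher with addback, Cdc20 (-0.79) and Ccna2 (-0.55) among the lower and Mcm4 (0.36) and Mcm2 (0.23) the higher, and their summed level was 5795 to 7024 CPM with addback, against 8271 to 8439 CPM with empty vector. Of 10 C cell and neuroendocrine markers 9 were higher and none lower, led by Calcb (3.43) and Chgb (2.26), and their summed level was 9765 to 11204 CPM with addback, against 5507 to 5835 CPM with empty vector. The 3 fibroblast markers with values summed to 10.2 to 13.1 CPM with addback, against 29.5 to 39.4 CPM with empty vector, with Dcn (-2.12) and Col1a1 (-1.86) called lower and Pdgfrb (1.99) called higher. The 3 endothelial markers summed to 7.33 to 10.1 CPM with addback, against 5.65 to 6.54 CPM with empty vector, with Vwf (1.11) called higher and Tek (-1.11) lower. Cd68, the 1 immune marker with values, was at 2.49 to 3.73 CPM with addback, against 1.83 to 3.27 CPM with empty vector. The 3 follicular markers summed to 2.24 to 2.67 CPM with addback, against 2.29 to 3.55 CPM with empty vector, with Pax8 (-0.92) called lower. Some of these calls rest on values near or under 3 reads (0.374 to 0.386 CPM with addback, 0.426 to 0.458 CPM with empty vector). With addback Pax8 was at 0.127 to 0.374, Tek at 0.257 to 0.508 and Col1a1 at 0.381 to 0.771 CPM. With empty vector Pdgfrb was at 0.142 to 0.858 CPM. In bulk RNA a smaller share of cells of a type cannot be told apart from less RNA per cell. The part of these differences in the lower enzyme levels was not tested. In the lines the summed cell cycle genes were at 5157 to 7526 CPM in RPM and 4362 to 6483 CPM in RP lines, and the C cell markers at 5086 to 23526 CPM and 5343 to 7535 CPM, so both overlapped. Of the MYC paralogs, Mycn was at 23.5, 20.1 and 22.5 CPM with addback, against 18.4, 20.03 and 21.5 CPM with empty vector (adjusted p = 0.34 in limma), and Mycl was at 11.3 to 12.95 CPM with addback, against 9.62 to 13.9 CPM with empty vector. Myc was not among the genes listed for this experiment. In the lines it was at 0.255, 0.249, 2.25 and 0.248 CPM in RPM replicates 1 to 4, against 2.65, 4.69, 5.61 and 4.47 CPM in RP replicates 1 to 4, with no overlap (adjusted p = 0.125 in limma), and RPM replicates 1, 2 and 4 held 2 reads each, under the floor of 3 reads.

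**Figure D5:**
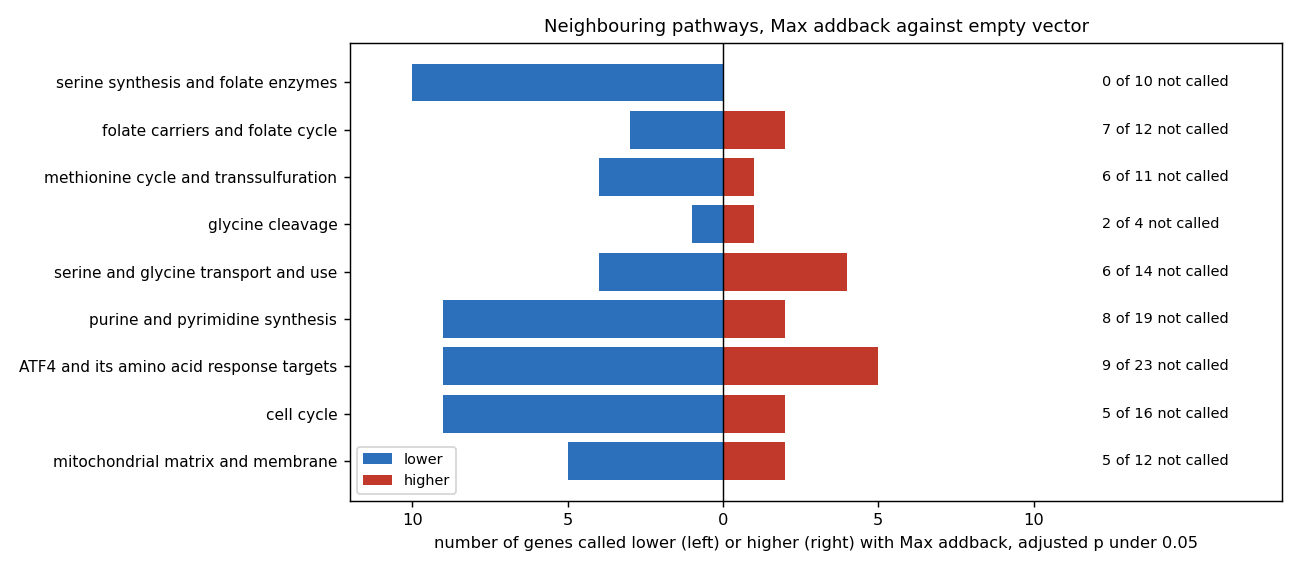
Number of genes called lower (left of 0) or higher (right of 0) with Max addback than with empty vector at an adjusted p under 0.05 in limma, for the 10 enzymes and 8 neighbouring lists, with the number not called at the right. All 10 enzymes were lower, while every other list held genes called in both directions. The enzymes and lists were chosen with earlier results of these data known, and this contrast was not tested.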

How the data were processed

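The cells were cultured in DMEM, RNA was taken up in Trizol and purified on columns, and an Ultra RNA kit gave the libraries, per the labels' protocols. The submitters' processing notes name bcl2fastq 1.8.4, TopHat2 2.1.0, HTSeq 0.6.1 and edgeR, and the build mm10; the annotation release was not given in the sources used here, nor was any tool's role. The authors deposited 1 table for the lines (14360 genes) and 1 for the addback experiment (14056 genes), normalised separately. Per the file headers, each gives a TMM-normalised CPM signal per library, RPKM values, the authors' log2 fold change and average log2 level, p-values and FDR values, and a score of -1, 0 or 1 for the authors' call. CPM values were whole multiples of 1 read (100% within 0.01 read in all 14 libraries), so raw counts were recovered from the deposited signal.

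The test was limma-trend 3.58.1 in R 4.3.3 on log2(CPM + 1), fitted on 8 and 6 libraries without covariates and adjusted over all listed genes, since the tables hold normalised values rather than raw counts. The pseudocount of 1 understates changes of low genes. Single enzymes were also tested by exact two-sided permutation of CPM. It allows no p under 0.0286 for 4 against 4 and none under 0.1 for 3 against 3, and that is the p of all 10 enzymes with addback. edgeR 4.0.16 and DESeq2 1.42.0 on recovered reads, other pseudocounts, a filter at a mean of 1 CPM, other size factors, a replicate block and leaving out each library were alternatives. Scripts were tested on simulated data. Named genes were all 10 enzymes, Max and the MYC paralogs, up to 2 called genes per list and direction with the largest change, and the 3 genes most correlated with Phgdh, Shmt1 and Mthfd2; Y-linked genes, Xist, Calca, Slc5a5 and Cd68 were added as checks. A further marker is not reported here. The enzymes and lists were chosen with earlier results of these data known. Samples were not paired by replicate number in the main fit. The correlation of deviations between same-numbered libraries was 0.40, 0.05, 0.01 and 0.13 for line replicates 1 to 4, and 0.01 to 0.08 with addback. The same number was the best match for line replicates 1 and 4 and addback replicate 3, and not for the others.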

Additional observations from a re-analysis of the deposited data

Results flagged for a closer look

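Groups of 4 lines were examined for a library far from the others, by its gap to the nearest line over the group's range. Of 22 such groups, 3 held one, and chance gives about 1 in 20 groups. Psat1 was at 217 CPM in RPM replicate 2, the line later used for the addback experiment, and the next RPM line was at 114 CPM. Phgdh was at 8.24 CPM in RP replicate 4, the line with both Xist and Ddx3y reads, and the next RP line was at 3.61 CPM. Shmt1 was at 83.3 CPM in RP replicate 1, and the next RP line was at 54.0 CPM; that line still lay below all RPM lines.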

How the results depend on the processing

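With addback, the 10 enzymes kept their direction in all 130 alternative values, and 127 kept their side of the threshold; the other 3 are those of Mthfd2. In the lines, 136 of 150 values kept both, 2 passed the threshold (DESeq2 called 2 enzymes, Shmt1 and Mthfd1) and 12 changed sign. The sign changes were of 3 enzymes near 0: Phgdh was 0.00383 with a pseudocount of 2, 0.13 with edgeR and 0.12 with DESeq2, and -0.32 to 0.31 over single libraries left out, as Psph was -0.13 to 0.32 and Mthfd2l -0.31 to 0.84. The count of all genes called between lines was 48. It was 3 with edgeR and 657 with DESeq2. It was 0 in limma with the replicate block, where 2463 genes had an unadjusted p under 0.05. Leaving out single libraries gave 0 to 261, the 261 without RPM replicate 1, and the 0 without RPM replicate 3, RPM replicate 4 or RP replicate 3 (1805, 1692 and 1469 genes at an unadjusted limma p under 0.05, and edgeR and DESeq2 were run only on all libraries). It was 11, 7, 12 and 17 without RPM replicate 2 and RP replicates 1, 2 and 4. The cause was not tested. The block changed no call of the enzymes (0 of 10 and 10 of 10) and gave 7438 against 7478 genes with addback. The log2 arm ratio, RPM minus RP lines, was -0.51, -0.73 as Shmt2 over Shmt1 only and -0.62 to -0.39 over single libraries left out. With addback minus empty vector it was 0.32, 0.21 as a difference of mean logs, 0.52 as Shmt2 over Shmt1 only and 0.25 to 0.36 over single libraries left out. Slc6a9 lost its call in 4 alternatives, Mcm2 in 5 and Sdha in 1. Depth limits Phgdh (13 to 71 reads in the lines) and Mthfd2l (16 to 190 reads) most among the enzymes.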
